A study of Homo sapiens with 7 samples.

Results

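POU5F1 (OCT4), SOX2, NANOG, PRDM14, SALL4, FOXD3 and OTX2 are transcription factors and DNA-binding regulators of the human pluripotent state. These 7 genes were taken by name from the 20404 gene names in the deposited expression table, and each was present and above 4 FPKM (a count of sequenced fragments scaled to transcript length and library size) in at least 1 library of every comparison below. Their levels were followed by RNA-seq in SEES-3 human embryonic stem cells (hESCs), an established cell line, in which doxycycline (Dox, 1 µg/ml) switched on the catalytic domain of the histone H3K27 demethylase JMJD3 (JMJD3c). JMJD3c-hESCs were sequenced on Day 0, before Dox, and on Days 1, 2, 3 and 4 of Dox. A second line carrying a point mutant without demethylase activity (JMJD3c mut-hESCs) was sequenced without Dox and, by the study's account, after 4 days with it. The comparisons ask how the pluripotency factors changed while the demethylase was expressed and whether the inactive protein gave the same.

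All 7 libraries came from SEES-3 cells kept feeder-free in StemFit AK-03 medium on iMatrix-511. Both lines also carried the reverse Tet-transactivator, a piggyBac Tet-On transgene with IRES-βgeo and puromycin resistance, and were selected as stable clones, so a difference between the lines may be a difference between clones. Each condition was 1 library, so no value has a replicate error and no test between conditions was possible. The bounds given with a level are the 95% intervals that Cufflinks computed within that library, and those given with a ratio were derived from them. They cover counting and read assignment and nothing between cultures. With the study's cutoffs, a gene counted as called lower when it was over 4 FPKM in the reference library and its ratio was under 0.5. It counted as called higher when it was over 4 FPKM in the other library and its ratio was over 2.

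In human pluripotent cells, OCT4 and SOX2 bind DNA side by side as a heterodimer, NANOG binds many of the same enhancers, and the 3 factors activate their own genes and each other's. PRDM14 and SALL4 sustain this circuit, PRDM14 partly by repressing differentiation genes, and FOXD3 is a forkhead factor of pluripotent cells and neural crest. OTX2 is a homeodomain factor of the primed state that also acts in anterior epiblast, mesendoderm and forebrain. SOX2 in turn continues into neural progenitors, while NANOG and OCT4 persist for a time in primitive streak and early endoderm.

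The sequences that this circuit reads lie partly in the factors' own promoters. The 250 bases before the annotated start are printed 5′ to 3′ on the gene's strand for NANOG, SOX2 and OTX2. They were searched for 3 exact words, given below. NANOG held all 3 and SOX2 held 1. OTX2, the member with the largest Dox response, held none at either of its 2 starts. Sequences are from a RefSeq promoter table (build GRCh38.p14) and each matched 1 place in the genome of the files' build, hg19 (GRCh37): NANOG at chr12:7941748-7941997 on the plus strand, inside the deposited NANOG locus, SOX2 at chr3:181429463-181429712 on the plus strand, and OTX2 at chr14:57277198-57277447 and chr14:57272386-57272635 on the minus strand. Capitals mark the octamer core ATGCAAA read by OCT4 (TTTGCAT on the other strand), the SOX core ACAATG, or CATTGT on the other strand, and the bicoid-type homeodomain core TAATCC read by OTX proteins, which is GGATTA on the other strand.
NANOG: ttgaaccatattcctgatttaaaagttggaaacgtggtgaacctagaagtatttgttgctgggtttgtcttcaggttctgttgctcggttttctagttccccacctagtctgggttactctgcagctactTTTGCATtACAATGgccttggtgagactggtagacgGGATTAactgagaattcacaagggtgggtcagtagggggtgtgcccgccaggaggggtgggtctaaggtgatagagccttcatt
SOX2: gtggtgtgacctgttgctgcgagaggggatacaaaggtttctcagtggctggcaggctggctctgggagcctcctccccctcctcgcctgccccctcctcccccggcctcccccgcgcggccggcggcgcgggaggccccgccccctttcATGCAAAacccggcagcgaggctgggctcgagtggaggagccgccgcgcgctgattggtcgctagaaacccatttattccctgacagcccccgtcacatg
OTX2 start 1: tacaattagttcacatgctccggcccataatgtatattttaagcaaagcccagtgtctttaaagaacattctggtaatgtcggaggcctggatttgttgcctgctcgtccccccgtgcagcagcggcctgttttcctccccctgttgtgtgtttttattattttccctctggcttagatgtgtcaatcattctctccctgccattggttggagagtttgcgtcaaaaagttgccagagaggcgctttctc
OTX2 start 2: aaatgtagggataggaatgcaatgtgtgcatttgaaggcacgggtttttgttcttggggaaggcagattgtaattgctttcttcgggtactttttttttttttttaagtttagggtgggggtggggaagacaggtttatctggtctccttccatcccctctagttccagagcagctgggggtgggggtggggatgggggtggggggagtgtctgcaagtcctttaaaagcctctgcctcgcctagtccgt

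The NANOG promoter held TTTGCAT at 120 to 114 bases and ACAATG at 112 to 107 bases before the start, a joined octamer and SOX pair with 1 base between, and GGATTA at 84 to 79 bases. The SOX2 promoter held ATGCAAA at 100 to 94 bases before its start. Over the 35116 promoters of the table, counting either strand, 3.94% held the octamer core, 9.29% the SOX core and 5.62% the bicoid-type core. All 3 words occurred in 21 promoters (0.0598%), NANOG among them. GC content was 47.6% for NANOG, 47.2% and 50.0% for OTX2, and 68.8% for SOX2, beside a median of 58.0% over the table. FOXD3, the other member in the table (4 of 7 members matched), had 67.6% GC and none of these words. The matches are letters in these windows and were not measured as binding. Variants of the words were not searched, so a promoter without a word may still hold a site for that factor family. The promoters of POU5F1, PRDM14 and SALL4 were not analysed here.

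Induction of the transgene, which the files count as KDM6B (the gene of JMJD3), was seen in every Dox library. KDM6B was at 3.45 FPKM on Day 0 and at 158, 212, 248 and 282 FPKM on Days 1 to 4. In the mutant line it was at 2.40 FPKM without Dox and at 454 FPKM with it, above every day of the JMJD3c line. These values count transcripts of the transgene and of the endogenous gene together. Transcripts of stem cell markers were present throughout: all 8 (the 3 core factors with LIN28A, TDGF1, DNMT3B, ZFP42 and L1TD1) were above 4 FPKM in every library. Their summed level was between 1833 and 2534 FPKM. The 3 core factors are themselves members studied here, so only the other markers are separate from them. Library depth is not given in the files. Taking the lowest common step of low values as 1 read, it was estimated at 1780000 to 3670000 reads, Day 0 being the shallowest, and at that depth SOX2 rested on about 557 reads and FOXD3 on about 39 on Day 0. The 15 mesendoderm markers summed to 8.43, 25.7, 108, 223 and 358 FPKM on Days 0 to 4, and to 15.0 and 10.9 FPKM in the mutant line without and with Dox. Of them 6 were above 0 on Day 0 and 14 on Day 4, and 10 and 11 in the mutant line without and with Dox. Such a count also depends on depth.

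The factors spanned a wide range of transcript levels in untreated cells. On Day 0, POU5F1 was at 841 FPKM, SOX2 at 136, NANOG at 108, SALL4 at 61.5, PRDM14 at 32.5, OTX2 at 18.9 and FOXD3 at 11.7 FPKM. FPKM is scaled to transcript length, so these levels can be set beside each other as a rough order. Reads that may be shared between similar genes, as for POU5F1 below, leave that order uncertain. Neighbours in this order had separate Cufflinks intervals down to PRDM14, whereas those of PRDM14 and OTX2 and of OTX2 and FOXD3 overlapped. POU5F1 alone made up most of the summed level of 1210 FPKM, the other 6 adding 368 FPKM. With Dox in the JMJD3c line the sum was lower on each day, at 1102, 1013, 1026 and 907 FPKM, and in the mutant line it was 1024 FPKM without and 885 FPKM with Dox.

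**Figure D1:**
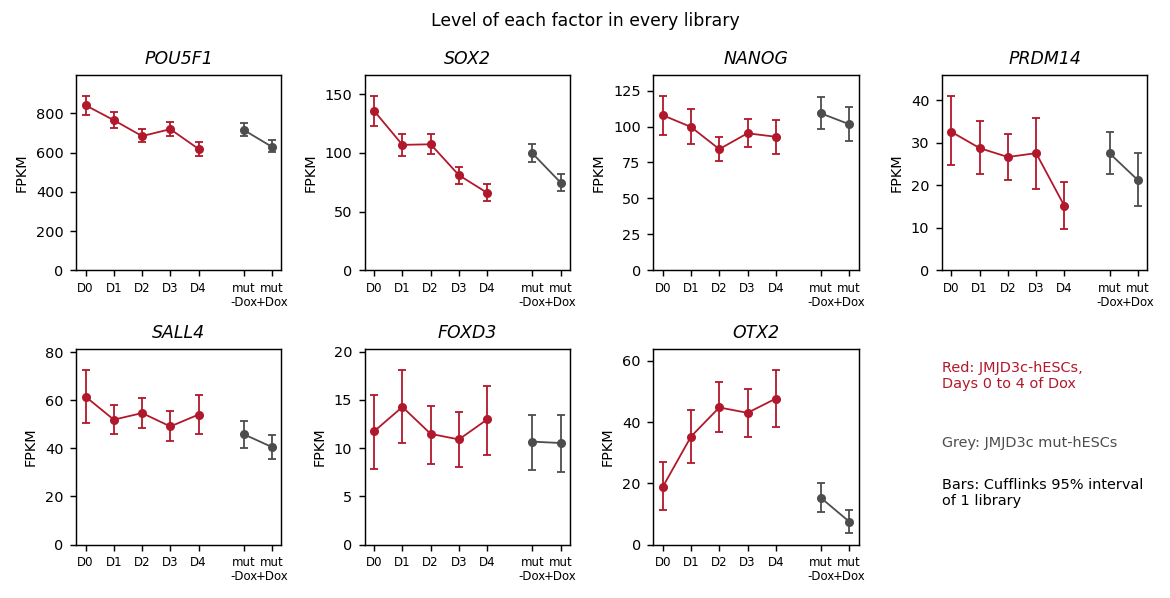
Level of each of the 7 factors in FPKM (y axis, linear, from 0) in each library (x axis), with JMJD3c-hESCs on Days 0 to 4 of Dox in red and JMJD3c mut-hESCs without and with Dox in grey. Points are single libraries and bars are the Cufflinks 95% interval. SOX2 ends at 65.9 FPKM from 136, PRDM14 drops to 15.1 on Day 4, and OTX2 climbs from 18.9 to 47.7 in the JMJD3c line while reaching 7.50 in the mutant line with Dox.

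After 4 days of JMJD3c, SOX2 and PRDM14 were at just under 0.5 of their Day 0 level, OTX2 was more than 2 times higher, and POU5F1 was lower by 26.5%. NANOG, SALL4 and FOXD3 were within the counting error of Day 0. By the cutoffs, 2 of the 7 factors were called lower, where 8.07% of all genes above 4 FPKM on Day 0 were, and 1 of 7 was called higher, where 6.31% of genes above 4 FPKM on Day 4 were. By direction alone 5 of 7 were lower, beside 55.2% of 10247 genes above 4 FPKM in either library. Their median log2 ratio of FPKM + 1 was -0.21, beside -0.06 over all these genes. In this bulk RNA, fewer cells of a type and less RNA per cell cannot be told apart. The mesendoderm markers moved over the same days as the factors, and their part in the changes was not tested.

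POU5F1, the POU-domain factor without which the pluripotent state is lost, was at 841, 765, 684, 720 and 619 FPKM on Days 0 to 4, and at 716 and 629 FPKM in the mutant line without and with Dox. It was the most abundant factor in every library, and Day 4 was its lowest value. The Day 4 to Day 0 ratio was 0.735 (0.678 to 0.798) with intervals apart, short of the cutoff. Intervals apart in the lower direction were found for 3 of 7 factors (POU5F1, SOX2 and PRDM14) beside 7.00% of all genes. POU5F1B, a near-identical retrocopy named here after its values were seen, was listed at 119 to 160 FPKM, 17.4% to 21.3% of POU5F1. Reads of the pair could have been split between them, so both levels are uncertain. Its Day 4 to Day 0 ratio was 0.742 (0.640 to 0.862), close to that of POU5F1. TCF19 overlaps POU5F1 on the opposite strand. The long noncoding gene PSORS1C3, which was not analysed here, overlaps it on the same strand. Of 7 table entries named POU5F1, 6 were at 0 in every library.

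SOX2, the HMG-box partner of OCT4, declined in steps. It stood at 136, 107, 107, 80.9 and 65.9 FPKM on Days 0 to 4 and at 99.6 and 74.6 FPKM in the mutant line without and with Dox. The Day 0 level (123 to 149 by its interval) was above that of every other library, and Day 4 (58.6 to 73.2) was the lowest. Day 4 was 0.486 of Day 0 (0.420 to 0.563), just past the cutoff of 0.5. The call was lost when libraries were rescaled to equal medians (0.507) or equal upper quartiles (0.514). Most of the decrease fell in 3 steps: Day 1 was 0.787 of Day 0 (0.690 to 0.897), Day 3 was 0.755 of Day 2 (0.669 to 0.852) and Day 4 was 0.814 of Day 3 (0.705 to 0.940), with intervals apart in each, while Days 1 and 2 did not differ beyond their intervals. The SOX2 transcript lies inside the long noncoding gene SOX2-OT on the same strand, which was not analysed here.

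NANOG, the homeodomain factor whose promoter carries the joined octamer and SOX words, varied least of the 3 core factors over the 7 libraries (SD of log2 levels 0.12, beside 0.14 for POU5F1 and 0.33 for SOX2). Its levels were 108, 99.7, 84.3, 95.3 and 92.9 FPKM on Days 0 to 4 and 109 and 102 FPKM in the mutant line without and with Dox. Only Day 2 was apart from Day 0, at a ratio of 0.781 (0.665 to 0.918). The Day 4 ratio was 0.861 (0.719 to 1.03). Relative to POU5F1, SOX2 went from 16.1% on Day 0 to 10.6% on Day 4, while NANOG was 12.8% on Day 0 and 15.0% on Day 4. In the mutant line without and with Dox, SOX2 was at 13.9% and 11.9% and NANOG at 15.3% and 16.1% of POU5F1. SOX2 stood above NANOG on Day 0 and below it on Day 4, with intervals apart on both days, and it was below NANOG in the mutant line too, with intervals overlapping without Dox and apart with it.

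PRDM14, a zinc finger regulator that holds differentiation genes down with PRC2, was at 32.5, 28.7, 26.6, 27.5 and 15.1 FPKM on Days 0 to 4, and at 27.5 and 21.2 FPKM in the mutant line without and with Dox. Days 1 to 3 overlapped Day 0, and Day 4 was the single low point. The Day 4 ratio to Day 0 was 0.465 (0.298 to 0.725), and to Day 3 it was 0.550 (0.342 to 0.885), where the library intervals still touched. SALL4, a spalt zinc finger factor that interacts with OCT4, was at 61.5, 51.9, 54.7, 49.1 and 54.0 FPKM on Days 0 to 4 and at 45.9 and 40.5 FPKM in the mutant line. Its highest value was Day 0 and its 2 lowest were those of the mutant line. The Day 4 ratio was 0.879 (0.695 to 1.11). FOXD3 was at 11.7, 14.3, 11.5, 10.9 and 12.98 FPKM on Days 0 to 4 and at 10.7 and 10.5 FPKM in the mutant line, so all 7 values lay within the Day 0 interval of 7.88 to 15.5. Its Day 4 ratio was 1.10 (0.722 to 1.69), and at this depth a change of that size was not detectable. FOXD3-AS1 overlaps it on the other strand, and whether counting used strand is not given in the sources used here.

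OTX2 was the factor that went the other way. It was at 18.9, 35.3, 44.8, 43.0 and 47.7 FPKM on Days 0 to 4, and at 15.2 and 7.50 FPKM in the mutant line without and with Dox. Every library of JMJD3c-hESCs with Dox was above every library without JMJD3c activity, and the mutant library with Dox was the lowest of all. Day 1 was 1.87 of Day 0 (1.15 to 3.04) with overlapping library intervals, and Days 2, 3 and 4 were 2.38 (1.51 to 3.75), 2.28 (1.45 to 3.60) and 2.53 (1.59 to 4.02) of Day 0, each with intervals apart. Beside these, 4.10%, 4.97% and 6.31% of genes were called higher on Days 2, 3 and 4, and 2.73%, 4.45% and 5.15% were higher with intervals apart. The level did not differ beyond its intervals between Days 2, 3 and 4. OTX2 passed from 13.9% of the SOX2 level on Day 0 to 72.4% on Day 4, and on Day 4 its interval of 38.3 to 57.1 FPKM overlapped that of SALL4.

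On Days 1 to 3 no factor was called lower, where 3.47%, 4.51% and 4.79% of genes were, and OTX2 was the factor called higher on Days 2 and 3. On Day 1 no factor was called higher, beside 3.64% of genes. Lower with intervals apart were SOX2 on Day 1 (1 of 7, beside 2.54% of genes), POU5F1, SOX2 and NANOG on Day 2 (3 of 7, beside 4.49%) and POU5F1 and SOX2 on Day 3 (2 of 7, beside 4.34%). The median log2 ratio of the 7 to Day 0 was -0.14, -0.28 and -0.23 on Days 1 to 3, beside -0.03, -0.05 and -0.01 over all genes. These comparisons share the Day 0 library, the shallowest, so a Day 0 value that is off moves all of them. Against the untreated mutant line in place of Day 0, SOX2 was not lower on Days 1 and 2, nor POU5F1 on Days 1 and 3, nor SALL4 on any of Days 1 to 3 (log2 ratios of 0.01 to 0.25), and PRDM14 was not lower on Days 1 and 3 (0.06 and 0.0012).

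**Figure D2:**
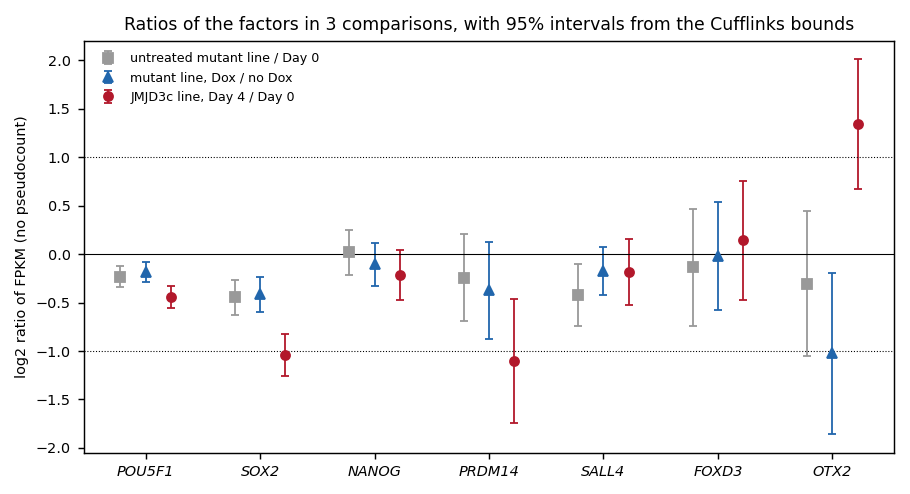
Log2 ratio of FPKM (y axis) of each factor (x axis) for the untreated mutant line against Day 0 (grey squares), the mutant line with against without Dox (blue triangles) and Day 4 against Day 0 in the JMJD3c line (red circles). Bars are 95% intervals derived from the Cufflinks bounds and dotted lines mark ratios of 2 and 0.5. OTX2 lies at 1.34 in the JMJD3c line and -1.02 in the mutant line, and SOX2 at -1.04 and -0.42.

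With the inactive protein, all 7 factors were lower with Dox than without it, beside 49.1% of 9735 genes above 4 FPKM in either library. The difference was small for most. SOX2 was 0.750 of its untreated level (0.662 to 0.849) and POU5F1 was 0.879 (0.821 to 0.942), the 2 factors with intervals apart (beside 1.68% of genes). OTX2 had the lowest ratio, 0.492 (0.276 to 0.875), and was the 1 factor called lower (beside 1.59% of genes), although its library intervals of 10.8 to 20.1 and 3.905 to 11.2 FPKM overlapped. PRDM14 was at 0.771 (0.546 to 1.09), SALL4 at 0.884 (0.744 to 1.05), NANOG at 0.931 (0.798 to 1.09) and FOXD3 at 0.987 (0.671 to 1.45). The median log2 ratio of the factors was -0.19, beside 0.00 over all genes. None was called higher, beside 1.29% of genes.

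Set against each other, the Dox responses of the 2 lines differed most for OTX2. Its log2 ratio was 2.36 higher with JMJD3c than with the mutant (1.30 to 3.43), a ratio of ratios of 5.15. SOX2 went down further with JMJD3c, by a difference of -0.63 (-0.90 to -0.35), and so did POU5F1, by -0.26 (-0.41 to -0.10). Both differences rest largely on the higher Day 0 level, from 1 library. Day 4 was at 0.883 (SOX2) and 0.983 (POU5F1) of the mutant line with Dox, while the untreated mutant line was at 0.734 and 0.850 of Day 0. For NANOG the difference was -0.11 (-0.45 to 0.23), for SALL4 -0.01 (-0.43 to 0.41), for FOXD3 0.16 (-0.66 to 0.99) and for PRDM14 -0.73 (-1.54 to 0.08), and each of these intervals holds 0. A ratio above 2 in the JMJD3c line and below 0.5 in the mutant line was found for 17 of 10877 entries (0.156%), and OTX2 was 1 of them. Its mutant ratio of 0.492 was just past the cutoff, with overlapping library intervals, so its place among them is uncertain. Lower in both lines were 5 of 7 factors, beside 29.2% of entries, and 2 of 7, POU5F1 and SOX2, had intervals apart in both lines, beside 0.579%. With 1 library per condition these intervals leave out the variation between cultures.

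Without any Dox the lines already differed in some factors. The untreated mutant line had 0.734 of the Day 0 level of SOX2 (0.649 to 0.831) and 0.850 of that of POU5F1 (0.789 to 0.917), with intervals apart (2 of 7, beside 6.93% of genes). SALL4 was at 0.746 (0.599 to 0.928) with touching library intervals. NANOG was at 1.01 (0.860 to 1.19), the 1 factor not lower (6 of 7 were, beside 54.2% of genes), and OTX2 was at 0.809 (0.482 to 1.36). No factor passed either cutoff, beside 7.33% of genes called lower and 2.98% called higher. The distance of SOX2 between the untreated libraries was thus as large as its Dox response in the mutant line.

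Between the libraries with Dox in the 2 lines, 5 of the 7 factors did not differ beyond their intervals. Day 4 POU5F1 was 0.983 of the mutant line with Dox (0.912 to 1.06) and SOX2 was 0.883 (0.762 to 1.02). PRDM14 was at 0.714 (0.446 to 1.14). SALL4 was higher, at 1.33 (1.10 to 1.61), and with OTX2 it made 2 of 7 factors higher with intervals apart (beside 7.58% of genes). OTX2 was 6.36 times higher on Day 4 (3.75 to 10.8), the 1 factor past the cutoff (beside 6.88% of genes), and no factor was called lower (beside 3.21%). Against the mutant line without Dox, Day 4 OTX2 was 3.13 times higher (2.18 to 4.49, beside 7.42% of genes called higher), SOX2 was at 0.662 (0.578 to 0.758) and PRDM14 at 0.550 (0.367 to 0.826). Neither SOX2 nor PRDM14 was called lower against this reference, beside 4.18% of genes.

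**Figure D3:**
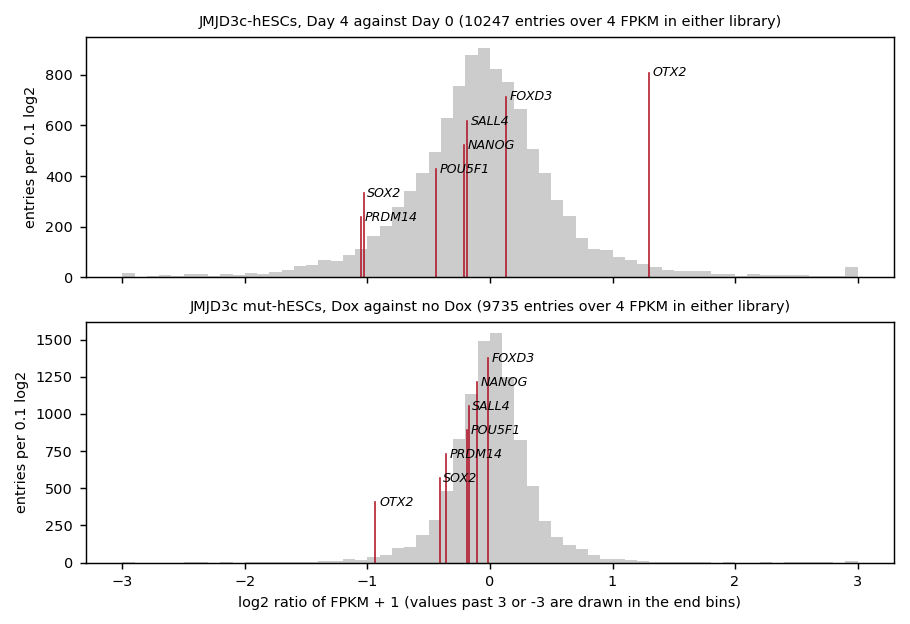
Log2 ratio of FPKM + 1 (x axis) over all entries above 4 FPKM in either library, as entries per bin (y axis, grey), with each factor marked by a red line whose height has no meaning. In the upper panel (Day 4 against Day 0) PRDM14 and SOX2 lie near -1.06 and -1.03 and OTX2 at 1.29, and in the lower panel (mutant line, Dox against no Dox) OTX2 lies at -0.94 with the other factors between -0.41 and -0.02.

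Among all genes, 5.24% had a lower log2 ratio than PRDM14 on Day 4 and 5.47% a lower one than SOX2, while 97.2% lay below OTX2. In the mutant line 1.10% lay below OTX2 and 8.30% below SOX2. POU5F1 lay at 21.8% and 23.7% in the 2 comparisons, NANOG at 36.8% and 33.5%.

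The closest profile to OTX2 over the 7 libraries, among 8348 genes above 4 FPKM in each, was that of LEFTY1, an inhibitor of Nodal signalling, with a root mean square difference of 0.19 log2 units. LEFTY1 was at 19.7, 43.3, 45.5, 59.2 and 70.0 FPKM on Days 0 to 4 and at 20.7 and 10.6 FPKM in the mutant line. Like OTX2 it was above Day 0 on each Dox day and was at its lowest in the mutant library with Dox, a likeness by which it was picked. TMSB15A came next, at 0.30. For SOX2 the nearest were TNS3 (0.07) and FRAT2 (0.08), for PRDM14 CECR2 (0.09) and C1orf233 (0.09), and for POU5F1 VAT1 (0.04) and RPL13 (0.04). NANOG was nearest to ACP1 (0.03) and EIF3B (0.03), SALL4 to CENPW (0.03) and MAP2K7 (0.06), and FOXD3 to RAD23B (0.06) and ARMCX3 (0.06). The members with small differences between libraries have near neighbours for that reason, since the median distance of all genes from NANOG was 0.24 and from OTX2 0.92.

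Of 18 relatives of the factors within their gene families, 9 were above 4 FPKM on Day 0 or Day 4. On Day 4, 2 were called lower, SOX15 and SALL3 (beside 8.07% of all genes), and 2 were called higher, FOXD1 and PRDM1 (beside 6.31%). The median log2 ratio of the list was 0.07. SOX3, the SOXB1 relative closest to SOX2, was at 9.61, 19.0, 21.1, 21.4 and 17.1 FPKM on Days 0 to 4 and at 6.56 and 7.00 FPKM in the mutant line. It went from 7.09% to 26.0% of the SOX2 level as SOX2 declined. SOX15 went the way of SOX2, from 21.2 to 9.06 FPKM (ratio 0.427), and was at 13.5 and 8.62 FPKM in the mutant line. Of the spalt genes, SALL2 was at 107 FPKM on Day 0 and 65.5 on Day 4 (ratio 0.613), SALL3 at 33.1 and 16.1 (0.487), and SALL1 at 18.4 and 23.6 (1.28), beside the ratio of 0.879 for SALL4. PRDM1, a repressor with a role in germ cells and endoderm, was at 0.233 FPKM on Day 0 and 4.29 on Day 4, with overlapping intervals (0 to 3.82 and 1.49 to 8.06). OTX1 was at or below 1.24 FPKM throughout. In the mutant line 7 of the 18 relatives were above 4 FPKM in either library. None was called there, beside 1.59% of genes called lower and 1.29% called higher.

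The list of other regulators of the pluripotent state held 19 genes, 18 above 4 FPKM. On Day 4, 16 were lower and 3 higher than on Day 0, with a median log2 ratio of -0.31, beside 55.2% of all genes lower and a median of -0.06. ZNF398 (13.7 to 6.33 FPKM, ratio 0.461) was the 1 called lower, beside 8.07% of all genes, and none was called higher, beside 6.31%. TRIM28, a corepressor, was at 364 and 334 FPKM, ETV4, an FGF-responsive ETS factor, at 106 and 85.0, and L1TD1, an RNA-binding protein of hESCs, at 239 and 215. In the mutant line 14 of 19 were lower (beside 49.1% of all genes) and the median was -0.17. None was called there, beside 1.59% of genes called lower and 1.29% called higher.

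The 20 genes listed as targets of these factors or markers of the state included genes called in both directions. On Day 4, 16 were lower than on Day 0 (median log2 ratio -0.63, beside 55.2% and -0.06 over all genes) and 3 were called lower, beside 8.07% of all genes. These were UTF1, at 125, 83.7, 50.7, 39.0 and 21.5 FPKM on Days 0 to 4 (ratio 0.172), DNMT3B, a de novo DNA methyltransferase, from 404 to 191 FPKM (0.473), and TERF1 from 178 to 83.5 FPKM (0.470). UTF1 thus decreased further than any of the 7 factors. The 3 called higher, beside 6.31% of genes, were LEFTY1 (ratio 3.55), LEFTY2 (4.28) and GAL (5.09), the neuropeptide galanin, at 64.0 FPKM on Day 0 and 325 on Day 4. The Day 4 value of GAL lies above its own Cufflinks interval of 227 to 288, so its size is uncertain. LIN28A, the most abundant of the list, was at 485 and 442 FPKM, and DPPA4 at 326 and 208. In the mutant line 18 of 20 were lower with Dox (beside 49.1% of all genes) and the median was -0.27. GDF3, a TGFβ family ligand, was the 1 called lower there (beside 1.59% of genes), from 22.6 to 11.1 FPKM.

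**Figure D4:**
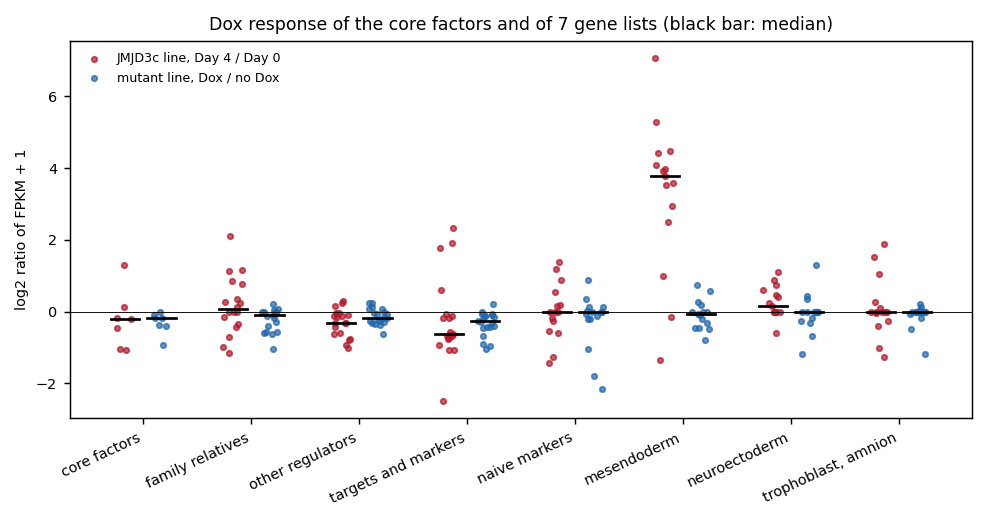
Log2 ratio of FPKM + 1 (y axis) of the 7 core factors and of the genes of 7 lists (x axis), with red points for Day 4 against Day 0 in the JMJD3c line and blue points for Dox against no Dox in the mutant line. Each point is 1 gene and black bars are medians over all genes listed, including those at 0. The mesendoderm markers have a median of 3.77 in the JMJD3c line and -0.07 in the mutant line, while the core factors have medians of -0.21 and -0.19.

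Markers of other states differed in kind. Of the 15 mesendoderm markers, 12 were called higher on Day 4 (median log2 ratio 3.77), beside 6.31% of all genes above 4 FPKM on Day 4. CER1, a Nodal and BMP antagonist of anterior endoderm, was listed at 0 on Day 0 and at 134 FPKM on Day 4, just above its own interval of 101 to 132. EOMES, a T-box factor, was listed at 0 and at 38.2, MIXL1 was at 4.43 and 41.0, FOXA2 at 0.255 and 27.2, and SOX17 was listed at 0 and at 20.3 FPKM. At that point POU5F1 was at 619 and NANOG at 92.9 FPKM, so transcripts of both were high in the same RNA. In the mutant line 1 of the 15 (MIXL1) was above 4 FPKM without Dox and 0 were with it. By the cutoffs none could therefore be called higher there, and only MIXL1 could be called lower. None was called, beside 1.29% of genes above 4 FPKM called higher and 1.59% called lower, so the absence of calls says little. Of the 15 neuroectoderm markers, 4 were above 4 FPKM and 1 was called higher (beside 6.31% of genes). This was PAX6, at 2.22 FPKM on Day 0 and 5.91 on Day 4 with overlapping intervals (0 to 11.5 and 1.31 to 15.7). NES was at 106 and 162 and SIX3, a forebrain homeodomain factor, at 6.64 and 13.2, both with intervals apart. In the mutant line NES was also higher with Dox, at 85.5 without and 115 FPKM with it, again with intervals apart. SIX3 was at 8.99 and 7.87 FPKM there, with overlapping intervals. ZNF521 was at 8.90 and 12.3 FPKM and was the 1 called lower in the mutant line (beside 1.59% of genes), from 7.27 to 2.66 with overlapping intervals. Of the 15 naive markers, 5 were above 4 FPKM. TFAP2C (24.0 to 8.36 FPKM) and GBX2 (14.7 to 5.61) were called lower, beside 8.07% of genes. KLF5 (0.941 to 4.11) and TBX3 (1.96 to 5.71) were called higher, beside 6.31%, and FGFR3 was at 7.58 and 8.76. The median log2 ratio of the naive markers was 0.00 in both lines. None of the 15 trophoblast and amnion markers was above 4 FPKM on Day 0 or Day 4, with 5 lower and 5 higher. KRT7, GABRP and GATA2, the highest by mean over the libraries, were at 3.98, 1.56 and 0.671 FPKM on Day 0. On Day 4 they were lower, at 1.06, 0.264 and 0.260 FPKM, with intervals apart for KRT7 (1.92 to 6.08 and 0.234 to 1.87) and overlapping for the others. GATA3, named here after its values were seen as the highest on Day 4, was listed at 0 on Day 0 and at 2.68 (1.36 to 4.00) on Day 4.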

How the data were processed

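RNA-seq was performed by the authors on poly(A) RNA with a directional NEBNext kit as 150-base single reads on an Illumina MiSeq. Per the labels and the study's methods, CASAVA 1.4 and TopHat2 2.0.13 were run, reads were mapped to hg19, and Cufflinks 2.1.1 gave the deposited FPKM per gene with 95% bounds. The annotation release and the use of strand in counting are not given in the sources used here. Each of the 7 libraries held 22670 entries and 20404 gene names. The entry with the highest mean FPKM stood for a name, and entries marked FAIL in a compared library were left out of counts over all genes.

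Ratios were taken of FPKM as deposited. Log2 ratios for lists, ranks and medians used FPKM + 1, which understates the change of low genes. The bounds of a ratio were formed on the log scale from the 2 Cufflinks half-widths added in quadrature. As 1 library stood for each condition, no test was made. All members were named in full, and from each list the 3 genes of highest mean FPKM and up to 2 more with the largest change past a cutoff on Day 4. Other genes named (SOX3, OTX1, LEFTY1, LEFTY2, TERF1, FOXD1, GDF3, TCF19, GATA3 and POU5F1B) were chosen after their values were seen or as genes called. The members and lists were chosen with earlier results of these data known. The scripts for the calls and the depth estimate were tested on simulated data, with changes far past the cutoffs. Python 3.11.15 with numpy 2.4.6, pandas 2.3.3 and matplotlib 3.10.9 was used. Depth was estimated from genes with 1 exon and 1 transcript after 200 bases were taken off their length. If the lowest step were 2 reads all estimates would double. Alternatives were other scalings, pseudocounts (0.1 or none), FPKM cutoffs (1 or none), separate Cufflinks intervals, summed entries and other references.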

Additional observations from a re-analysis of the deposited data

Results flagged for a closer look

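OTX2 moved in opposite directions with Dox in the 2 lines, higher with JMJD3c and lower with the mutant, a difference of 2.36 on the log2 scale. Its library intervals were apart in the JMJD3c line on Day 4 and overlapped in the mutant line. FOXD3 was also on opposite sides, by 0.16, with an interval that holds 0 and levels between 10.5 and 14.3 FPKM in all 7 libraries. With 1 library per condition, neither difference was tested.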

How the results depend on the processing

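Of the 2 members called lower on Day 4, 1 (PRDM14) passed the cutoff when libraries were rescaled to equal medians or to equal upper quartiles, SOX2 then being at 0.507 and 0.514 of Day 0, and 0 passed when Day 3 took the place of Day 4 or the geometric mean of both untreated libraries was the reference. The 1 member called lower in the mutant line was 0 when library intervals also had to be apart. Against the untreated mutant line, 1 member in place of 0 was called higher on Day 1, and the median log2 ratio turned to 0.10 on Day 1, 0.097 on Day 2 and 0.0082 on Day 3. Under that reference the log2 ratios of POU5F1 turned to 0.10 and 0.0082 on Days 1 and 3, of SOX2 to 0.10 and 0.11 on Days 1 and 2, and of SALL4 to 0.18, 0.25 and 0.10 on Days 1, 2 and 3. The cause was not tested. Under the alternatives, 204 other counts and medians and 505 single-gene values stayed within their limits, although 2 of the former and 11 of the latter turned sign (among them POU5F1 and the median of the members on Day 4 against the mutant line with Dox, FOXD3 on Day 2 and the difference of SALL4 between lines under rescaling). A further 6 single-gene values moved without turning. Rescaling changed library levels by at most 0.08 log2. The Day 4 to Day 0 ratios of FOXD3, OTX2 and PRDM14 have the widest bounds. No paired analysis was possible because each condition is 1 library. Leaving out a library was not run for the same reason.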
